A study of Rattus norvegicus with 12 samples.

Results

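Of 22701 transcript rows in a long noncoding RNA (lncRNA) table of fetal rat spinal cord, 999 had an identifier beginning with MSTRG and no catalogue entry, and these newly assembled transcripts are described here. They were chosen by that identifier alone. The other rows were 20717 with NONCODE and 985 with Ensembl identifiers. The lumbosacral spinal cord came from Wistar fetuses on embryonic day 17. The normal group and the group with anorectal malformations (ARM) induced by ethylenethiourea (ETU) each had 3 libraries, replicates 1 to 3. The labels give no fetus exposed to ETU without ARM, so exposure and malformation cannot be told apart. They do not say how many fetuses or litters a library holds, and every p-value here measures only the spread of these libraries, which may be technical.

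Transcript assembly joins overlapping sequencing reads into exon models and so can describe RNAs that no catalogue lists. In an MSTRG identifier, the first number is the locus and the second the transcript of that locus, and transcripts of one locus can share most of their exons. LncRNAs as a class are known for low levels, for restriction to certain tissues and stages, and for lying near genes of development. Reads that fall on an exon shared by several models have to be divided between them by the counting step, which the sources used here do not describe.

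Total counts of the lncRNA table were 3017868, 4508920 and 4549756 in the normal and 3795224, 3666644 and 3299241 in the ARM libraries, in the order of their replicate numbers, as everywhere below. Rows named after neural genes, found for 5 of 6 genes sought (Nrep, A2bp1, Hoxb8 and Hoxd9 among them), summed to between 26857 and 31191 CPM. Rows of the cartilage and meninges list summed to 16.9 to 61.0 CPM and those of the sensory ganglion list to 473 to 612 CPM. The sole row of the muscle list stayed at or below 0.627 CPM. The sole row of the blood list, named after beta globin, was at 1.58 to 4.29 CPM in 5 libraries and at 211.5 CPM in ARM replicate 3. CPM are counts per 1000000 of a scaled library total over the tested rows.

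The assembled transcripts were far longer than the catalogued ones. Their median length was 3574 bases, with quartiles at 1375 and 8146 bases, against a median of 652 bases for NONCODE and 755 bases for Ensembl rows. Over 10000 bases there were 185 assembled transcripts and 2 other rows. The longest assembled transcript was MSTRG.7789.1 with 50276 bases, followed by MSTRG.10431.1 with 40380 and MSTRG.24166.2 with 36890 bases. The genomic span had a median of 9213 bases, against 1372 bases for NONCODE and 4760 bases for Ensembl rows.

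**Figure D1:**
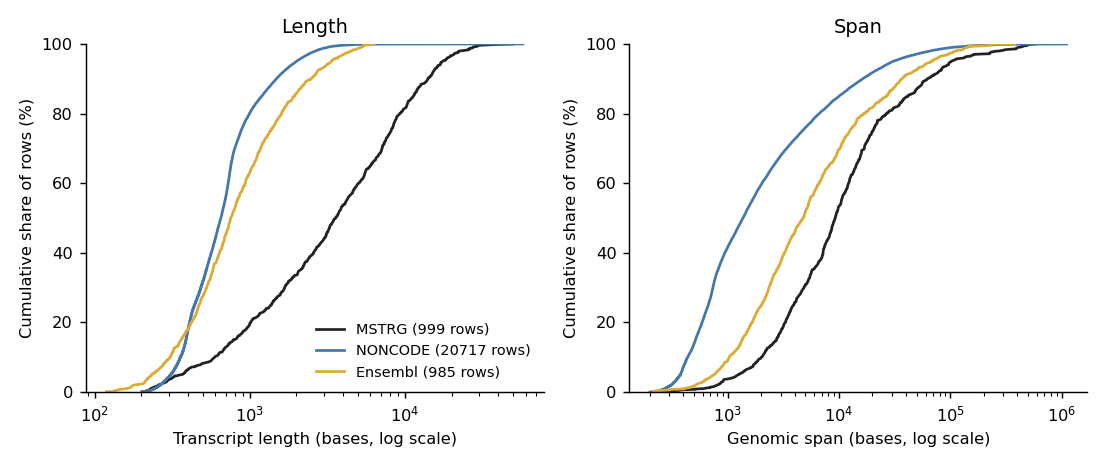
Cumulative share of rows by transcript length (left) and by genomic span (right), both in bases on a log scale, for the 999 MSTRG, 20717 NONCODE and 985 Ensembl rows. The MSTRG curve lies to the right of the others, with medians of 3574 bases of length and 9213 bases of span.

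Every assembled transcript had a span larger than its length, by at least 20 bases, so that each model leaves out some genomic sequence. Among NONCODE rows, 47.7% had equal span and length. The bases left out were few in many cases. In 364 of the 999 rows the transcript covered over 95% of its span, and in 260 rows fewer than 100 bases were left out. MSTRG.20078.17, for example, had 26485 bases over a span of 26547, so that 62 bases were left out. At the other extreme, 53 rows (5.31%) spanned over 100000 bases, against 1.04% of NONCODE and 2.74% of Ensembl rows. MSTRG.1400.3 held 5509 bases within a span of 579082, MSTRG.1892.1 held 1323 within 525376, and MSTRG.1894.5 held 1033 within 501189.

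The 999 rows fell into 780 loci, of which 653 had 1 row in the table and 127 had 2 to 22 rows. Transcript numbers within a locus reached 37, in MSTRG.9245, of which 9 rows are in the table. The other transcripts of these loci are not analysed here. Coordinates are those of the table, and the sources used here do not name its genome build. Chromosome 1 held 159 of the 999 rows (15.9%) but 95 of the 780 loci (12.2%), beside 12.3% of all other rows. Chromosome 11 held 58 rows (5.81%) in 44 loci (5.64% of the loci), beside 2.42% of other rows. Chromosome 10 held 5.11% of the assembled rows and 5.26% of their loci, beside 7.84% of other rows. No share of loci was taken for the other rows. Another 7 rows lay on 6 unplaced scaffolds, where no catalogued row lay.

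Most windows that held assembled rows held 1, but most assembled rows shared their window with others. Of 493 windows of 1000000 bases that held any, 291 held 1 row, and 8 held at least 10, together 130 of the rows. The window of chromosome 1 from 122000001 to 123000000 held 32 rows of 12 loci and 3 catalogued rows. On the same chromosome the window from 181000001 to 182000000 held 20 rows of 2 loci and none from a catalogue. The window of chromosome 16 from 16000001 to 17000000 held 16 rows of 7 loci, and the window of chromosome 12 from 27000001 to 28000000 held 14 rows of 6 loci.

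Few assembled transcripts touched a catalogued row. Of the 999, 127 overlapped a NONCODE or Ensembl row by at least 1 base, and 57 of these overlapped a row named after a protein-coding gene. The table gives no strand, so reads from the 2 transcripts of an overlap cannot be told apart there, nor at the 89 MSTRG loci that overlapped another MSTRG locus. For 553 rows a row named after a coding gene lay within 500 kb or overlapped, and the median distance over 992 rows was 372 kb. Genes without a noncoding row in the table do not enter these distances.

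For the 8 transcripts with the highest CPM, the nearest such rows lay 368 to 1749.2 kb away. Both rows of MSTRG.109 lay 1036.6 kb and MSTRG.110.1 lay 1030.0 kb from a row named after Txlnb. MSTRG.20078.17 lay 1749.2 kb from one named after Stxbp6, MSTRG.24166.2 lay 878 kb from Lmbrd1 and MSTRG.10431.1 lay 522 kb from Wdr37. MSTRG.21383.27 lay 546.5 kb from Nav3, which encodes a neuron navigator, and MSTRG.13707.33 lay 368 kb from Ank2, an ankyrin of the membrane skeleton. The longest transcript, MSTRG.7789.1 (chromosome 14, 67078922 to 67129342), lay 244 kb from a row named after Slit2, an axon guidance ligand. Among less abundant rows, chosen after their neighbours were seen, MSTRG.4978.1 (chromosome 11, 11293210 to 11312846) lay 223 kb from Robo2, a receptor for Slit proteins, and MSTRG.8149.4 overlapped a row named after Bcl11a, a transcription factor of dorsal spinal neurons. Neighbourhood is a position in the table and no measure of regulation.

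In level per length the assembled transcripts stood above the rest of the table in every library. Levels per length are the deposited FPKM (fragments per kilobase of transcript, scaled to sequencing depth by the authors). The median over MSTRG rows was 3.67, 3.44 and 2.83 FPKM in the normal and 2.76, 2.91 and 4.499 FPKM in the ARM libraries. The median over all other rows was between 0.968 and 1.18 FPKM. The geometric mean of the 6 ratios was 3.18-fold (log2 ratio 1.67 ± 0.17 SD, n = 6 libraries). The MSTRG median was higher in 6 of 6 libraries. An exact two-sided sign-flip permutation test gave p = 0.031, the smallest that 6 libraries allow. That p covers only the spread over libraries. It cannot separate level from the criteria by which rows entered the table, taken up below.

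The rows also began at a higher level. In its highest library only 6 of the 999 assembled transcripts (0.601%) stayed below 1 FPKM, against 7787 of 20717 NONCODE rows (37.6%) and 712 of 985 Ensembl rows (72.3%). The sources used here do not give the criteria by which assembled transcripts entered the table, and the part of such criteria in the difference was not tested. Among rows that passed the filter on low counts the log2 ratio of medians was 0.28. The median level of assembled transcripts hardly moved with length, from 3.09 to 3.602 FPKM over 6 length classes. That of other rows rose from 0.653 FPKM at up to 500 bases to 6.25 FPKM between 2000 and 5000 bases, where assembled transcripts had a median of 3.25 FPKM.

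A neighbouring pair of loci on chromosome 1 was the most abundant. MSTRG.109.7 (11906759 to 11907668), a transcript of 782 bases, had 75817, 32493 and 113890 counts in the normal and 98391, 48445 and 54856 in the ARM libraries. MSTRG.109.8, of 774 bases and with its start at 11906763, had 3176, 108008 and 10722 counts in the normal and 7976, 0 and 4186 in the ARM libraries. The libraries lowest in the first were thus those in which the second was highest (normal replicate 2) or at 0 (ARM replicate 2). Summed over both, the locus was at 28547.7 ± 2662 CPM in normal and 19968.7 ± 7829 CPM in ARM cord (SD, n = 3 each).

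MSTRG.110.1 (11912071 to 11914300), a transcript of 539 bases that is alone at its locus in the table, varied much less. It was at 1303.6 ± 94.5 FPKM in normal and 1333.0 ± 145 FPKM in ARM cord. The next by level per length were MSTRG.1898.2, of 247 bases on chromosome 1 (180858091 to 180861808), at 144 ± 28.8 and 117 ± 19.6 FPKM, and MSTRG.14294.1, of 1521 bases on chromosome 20 (19483978 to 19485844), at 108 ± 17.6 and 120.1 ± 19.97 FPKM. None of these passed the test between groups.

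Below that pair of loci, the next 5 rows by CPM were very long transcripts, at far lower levels per length than the pair. Their means over the 6 libraries were 5.42 to 12.98 FPKM, beside a median of 3.34 FPKM over all assembled transcripts. MSTRG.20078.17 was at 2241.5 ± 326 CPM in normal and 2204.8 ± 526 CPM in ARM cord, which for its length is 13.0 ± 2.20 and 12.9 ± 4.25 FPKM. MSTRG.21383.27, of 27611 bases, was at 2094.7 ± 354 and 2203.7 ± 636 CPM. MSTRG.24166.2 was at 1704.9 ± 357 and 1619.6 ± 502 CPM, MSTRG.10431.1 at 1507.1 ± 153 and 1333.5 ± 139 CPM, and MSTRG.13707.33 at 1379.0 ± 231 and 1193.9 ± 219 CPM. In all 5 the groups overlapped.

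Assembled transcripts, 4.40% of the rows, took 20.2%, 19.2% and 17.1% of the lncRNA counts in the normal and 16.8%, 16.0% and 21.3% in the ARM libraries. The exact 95% binomial intervals reach at most 0.0454 percentage points to either side and cover counting error only. ARM replicate 3 and normal replicate 1 were highest, so the spread within each group was larger than the difference of its means, 18.8 ± 1.61% in normal and 18.1 ± 2.86% in ARM cord. An exact two-sided permutation test over libraries gave p = 0.8, where 3 against 3 cannot go below 0.1.

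The same libraries stood out row by row, relative to the rest of the table. Among 645 tested transcripts alone at their locus, 90.1% lay above their own mean over the 6 libraries in ARM replicate 3 and 73.3% in normal replicate 1. In ARM replicates 1 and 2 and normal replicate 3 this share was 14.7%, 23.9% and 22.0%. Among 12662 other tested rows it was between 51.0% and 54.3% in every library, a share that the scaling holds near the middle, since these rows are most of those on which the libraries were scaled. The median deviation of the single-row transcripts from their own mean was 0.35 on the log2 CPM scale in ARM replicate 3 and -0.19 in ARM replicate 1.

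By length, the median deviation over assembled transcripts in ARM replicate 3 was 0.24 at up to 500 bases and 0.39 above 10000 bases, and in ARM replicate 1 it was -0.14 and -0.22. ARM replicate 3 and normal replicate 1 had the smallest total counts, and ARM replicate 3 had the high globin row given above. The part of depth, of blood or of any other property of these libraries was not tested. In the fit described below, 55.5% of tested assembled transcripts had a positive log2 fold change with all 6 libraries, beside 50.7% of all tested rows. The share was 25.4% without ARM replicate 3 and 71.4% without ARM replicate 1.

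**Figure D2:**
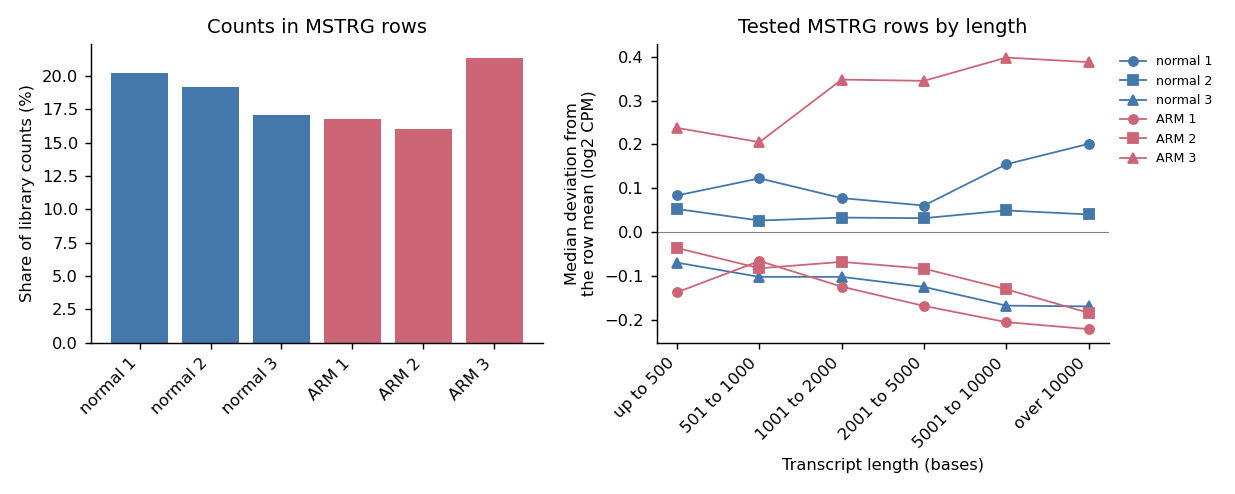
Left, share of each library's lncRNA counts in MSTRG rows, in percent, with normal libraries in blue and ARM libraries in red. Right, median deviation of tested MSTRG rows from their own mean over 6 libraries (log2 CPM) by transcript length in bases, where ARM replicate 3 lies highest in every length class, at 0.21 to 0.40.

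Transcripts with other rows at their locus varied more between replicates than transcripts alone at theirs. Among 277 tested rows of multi-row loci the median coefficient of variation within groups was 46.8%, against 19.3% for the 645 single rows, at median levels of 103 and 83.2 CPM. Summed by locus, the spread came down. Over 114 multi-row loci with at least 100 counts in every library, the locus sums had a median coefficient of variation of 19.2%, against 44.3% for the 256 tested rows of these loci. The sums also include rows that were not tested. In 63 of these 114 loci (55.3%) the row with the most counts was not the same in all 6 libraries, and 8 loci had 3 or more different leading rows. These are descriptions over rows, which are not replicates.

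The extreme form was a row at 0 in one library and at 100 counts or more in another. It was seen in 111 of the 302 multi-row transcripts that reached 100 counts (36.8%) and in 1 of 536 single ones (0.187%). Among catalogued rows it was seen in 43 of 5079 (0.847%). In 62 of the 112 assembled transcripts of this kind, zeros occurred in both groups. In 18 every ARM library was at 0, and in 14 every normal library was. The single transcript was MSTRG.12606.1, with 253, 0 and 319 counts in the normal and 111, 247 and 397 in the ARM libraries. A count of 0 allows up to 3 counts, 0.664 to 1.01 CPM depending on the library.

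**Figure D3:**
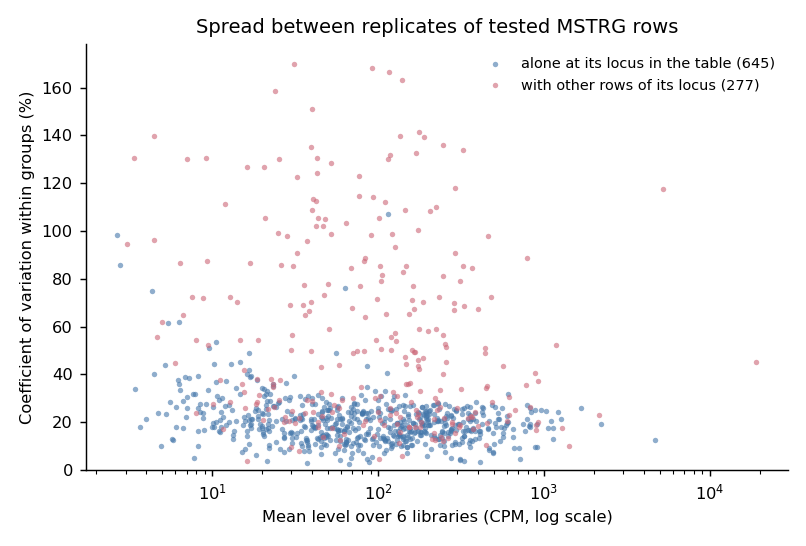
Coefficient of variation within groups (percent, mean of the normal and ARM values) against the mean level (CPM, log scale) of the 922 tested MSTRG rows. Most of the 645 rows alone at their locus (blue) lie low, with a median of 19.3%, and the 277 rows with other rows of their locus (red) have a median of 46.8%.

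At many of these loci the models differ little. In 52 loci 124 rows shared both ends, to within 50 bases, with another row of their locus. MSTRG.20537 on chromosome 6 has 5 such rows, all starting at 112263484. MSTRG.20537.10 had 3102, 772 and 291 counts in the normal and 5432, 5786 and 1510 in the ARM libraries. MSTRG.20537.12 had 0, 4859 and 1475 in the normal libraries and 0 in each ARM library. MSTRG.20537.6 had 2279, 0 and 2083 in the normal and 0, 0 and 2336 in the ARM libraries. The locus as a whole had between 4897 and 5786 counts in every library.

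MSTRG.6178 on chromosome 12 (27156024 to 27176737) showed an exchange in a single library. MSTRG.6178.3 had 5070, 7080 and 5477 counts in the normal and 5085, 4367 and 0 in the ARM libraries. MSTRG.6178.6, which starts at 27159538, had 0 in each normal library and 0, 532 and 5632 in the ARM libraries. The sums ran from 4899 to 7080 counts. The nearest row named after a coding gene was that of Auts2, a gene of neural development, 898 kb away.

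The locus with the most rows was MSTRG.1894 on chromosome 1, with 22 rows between 180645516 and 181353773. Only 2 of them had at least 100 counts in every library, 12 had 0 in some library and at least 100 in another, and 11 passed the filter on low counts. The leading rows were MSTRG.1894.5, MSTRG.1894.15 and MSTRG.1894.7 in the normal libraries, with 1541, 1181 and 1747 counts. They were MSTRG.1894.11, MSTRG.1894.17 and MSTRG.1894.15 in the ARM libraries, with 1172, 908 and 758 counts. The summed locus was at 1706.1, 1606.2 and 1189.6 CPM in the normal and 1251.6, 1162.5 and 1042.2 CPM in the ARM libraries, and the groups overlapped (log2 fold change -0.38 ± 0.15, edgeR adjusted p = 0.9999).

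The other loci with many rows were MSTRG.9245 on chromosome 16 with 9 rows, MSTRG.17566 on chromosome 4 with 9 and MSTRG.1437 on chromosome 1 with 6, a number that MSTRG.1896 shared. MSTRG.9245 had 4 different leading rows over the 6 libraries. MSTRG.17566.1 and MSTRG.1437.2 led their loci in every library. Summed, MSTRG.9245 was at 1777.7 ± 534 and 1711.7 ± 198 CPM, MSTRG.17566 at 573.5 ± 158 and 708.5 ± 332 CPM and MSTRG.1437 at 560.5 ± 75.3 and 545.2 ± 218 CPM in normal and ARM cord. None of these 3 sums passed the test between groups.

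**Figure D4:**
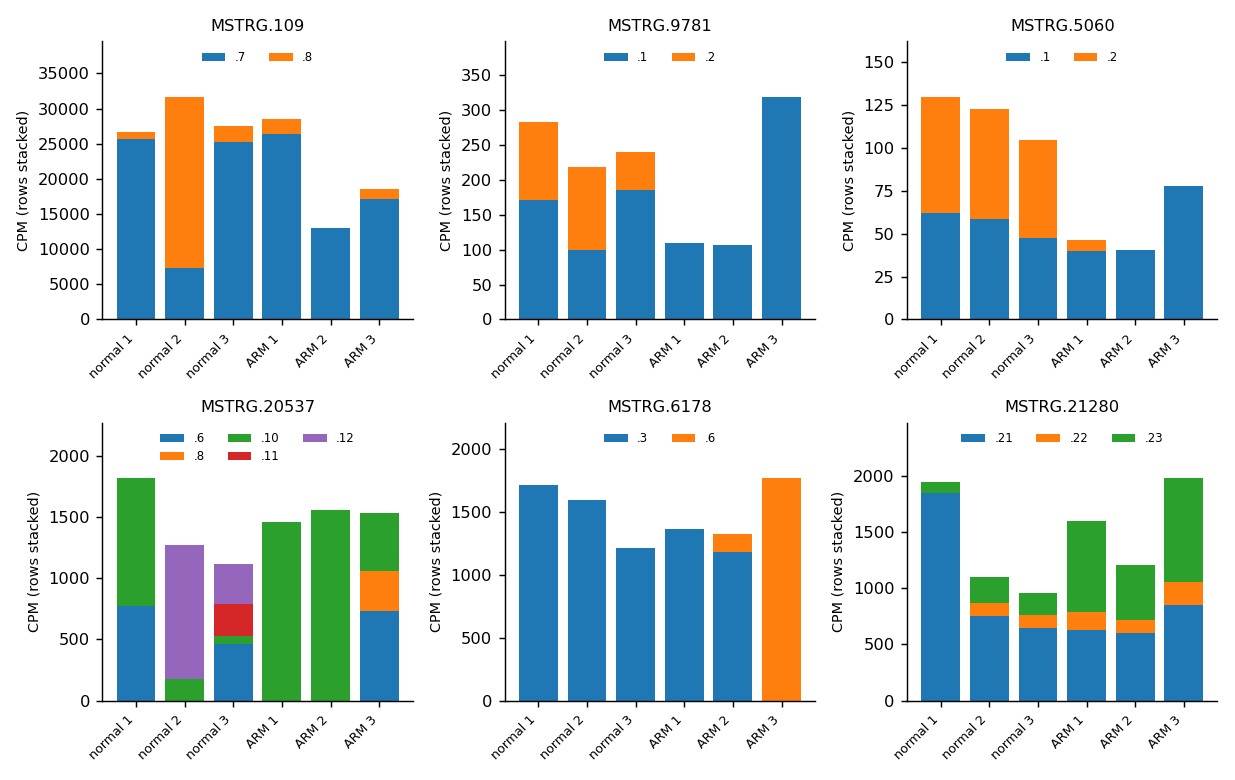
Level in CPM of the rows of 6 loci, stacked, in the 3 normal and 3 ARM libraries, with each colour a row named by its transcript number. In MSTRG.20537 and MSTRG.6178 the colours change between libraries while the height of the bars changes less, and MSTRG.9781.2 and MSTRG.5060.2 are large in normal and at or near 0 in ARM libraries.

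The comparison of ARM with normal cord was fitted over the whole table, and 922 of the 999 assembled transcripts passed its filter on low counts. One of them passed an adjusted p of 0.05, and it was lower in ARM cord (edgeR quasi-likelihood test, n = 3 and 3, Benjamini-Hochberg over 13584 rows). Over all tested rows 0.0515% were called, 0.0442% lower and 0.00736% higher in ARM cord. At an unadjusted p under 0.05, 25 assembled transcripts (2.71%) stood beside 3% of all rows, 10 of them lower and 15 higher in ARM cord, beside 1.38% and 1.61%. Groups did not overlap for 42 of the 922 (4.56%), beside 7.78% of all tested rows. Of these, 19 were lower and 23 higher in ARM cord, beside 3.91% and 3.87% of all. DESeq2 called 3 of the 922, 1 lower and 2 higher in ARM cord, beside 0.0883% and 0.0442% of all and 0.133% in either direction. The median log2 fold change was 0.02, beside 0.0036 over all tested rows. In bulk tissue, fewer cells of a type and less RNA per cell cannot be told apart.

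Large fitted changes sat at multi-row loci. A fitted change of at least 2-fold was seen in 58 of 277 tested rows with company (20.9%) and in 1 of 645 single rows (0.155%), beside 2.71% of all tested rows. Unadjusted p under 0.05 was seen in 20 (7.22%) and 5 (0.775%) of them. The sole single row changed at least 2-fold was MSTRG.16939.1 (chromosome 4, 66964593 to 66966631), with 18, 25 and 19 counts in the normal and 38, 34 and 50 in the ARM libraries. Its groups did not overlap, and it did not pass (log2 fold change 1.14 ± 0.29, edgeR adjusted p = 0.9997).

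**Figure D5:**
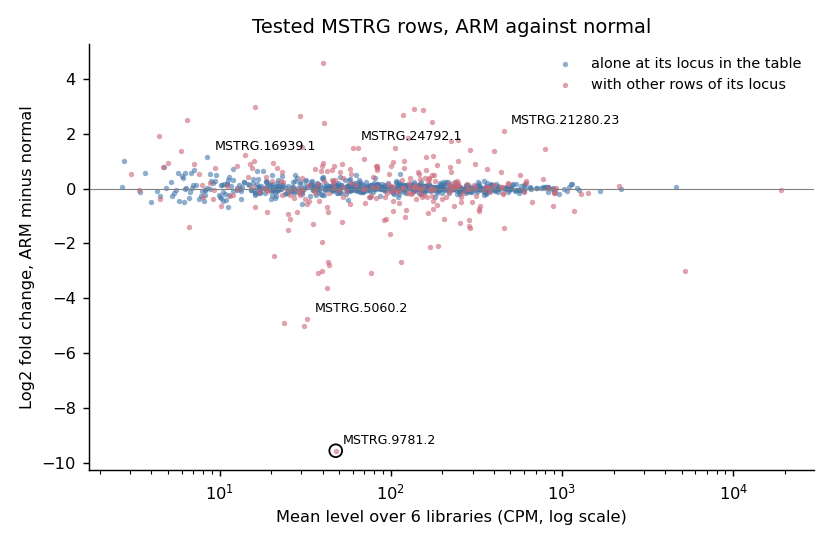
Log2 fold change, ARM minus normal, against the mean level (CPM, log scale) of the 922 tested MSTRG rows, in blue where the row is alone at its locus and in red where it is not. The circle marks MSTRG.9781.2, the sole row past an adjusted p of 0.05, and the blue points stay within 2-fold except MSTRG.16939.1.

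The called transcript was MSTRG.9781.2 on chromosome 16 (77737030 to 77757461), of 6707 bases. It had 329, 533 and 247 counts in the normal and 0, 0 and 1 in the ARM libraries. With counts pooled over the libraries of each group, the ratio of normal to ARM was 989, with an exact 95% counting interval of 177 to 39093. That interval leaves out the spread between libraries. The edgeR adjusted p, which takes the spread in, was 0.00868. Leaving out ARM replicate 3 ended the call, at an edgeR adjusted p of 0.0777, although both remaining ARM libraries were at 0. Its partner MSTRG.9781.1 has the same start and end and 6706 bases, 1 base fewer. The partner had 508, 439 and 838 counts in the normal and 407, 397 and 1016 in the ARM libraries, without a gap between the groups.

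Whether MSTRG.9781.2 changed its share of the locus was tested against the fitted change of its whole locus. It was the one assembled transcript of 241 tested for their share that passed, beside 0.167% of all rows tested for a share. Its natural-log difference from the whole locus was -6.29 (edgeR diffSpliceDGE, adjusted p = 3.91e-04 over 3599 rows). At an unadjusted p under 0.05 there were 20 of the 241 (8.3%), beside 1.94% of all. Past the adjusted p there were 8 assembled transcripts without normal replicate 1, 4 without normal replicate 2, 3 without ARM replicate 3, 2 without ARM replicate 1 or ARM replicate 2, and 1 without normal replicate 3. MSTRG.9781.2 was among them in each case, at edgeR adjusted p of 0.00155 to 0.00872.

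The locus MSTRG.9781 as a whole did not pass. It was at 281.5, 218 and 239 CPM in the normal and 109, 107 and 318 CPM in the ARM libraries. ARM replicates 1 and 2 lay below all normal libraries and ARM replicate 3 above them. The log2 fold change was -0.47 ± 0.42 (edgeR adjusted p = 0.9999), and without ARM replicate 3 it was -1.19 ± 0.13 (adjusted p = 0.0672). Its nearest rows named after coding genes, Mcph1 and Arhgef10, lay 1628 kb and 1990 kb away.

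With the rows of each assembled locus summed, no locus of 772 tested passed in edgeR, beside 0.0447% of all features, and 10 (1.3%) had an unadjusted p under 0.05, beside 2.96%. Groups did not overlap for 30 of these loci (3.89%), beside 7.79% of all features. DESeq2 called 1 locus of the 772, beside 0.127% of all features, MSTRG.5060 on chromosome 11 (15922794 to 15942883). It was at 129, 122 and 104 CPM in the normal and 46.3, 40.5 and 77.5 CPM in the ARM libraries, with every ARM library below every normal one. The log2 fold change was -1.11 ± 0.25 in edgeR (adjusted p = 0.9999) and -1.12 in DESeq2 (adjusted p = 0.00392). Without ARM replicate 3 edgeR called it too, at -1.45 ± 0.14 (adjusted p = 0.0454).

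At MSTRG.5060 the gap came mainly from MSTRG.5060.2, a transcript of 2625 bases, with 201, 283 and 257 counts in the normal and 25, 0 and 0 in the ARM libraries. Its ratio of normal to ARM, with counts pooled over the libraries of each group, was 26.4. The exact 95% counting interval of 17.8 to 41.1 leaves out the spread between libraries. MSTRG.5060.1 had 183, 261 and 215 counts in the normal and 148, 151 and 248 in the ARM libraries. MSTRG.5060.2 did not pass with all libraries (edgeR adjusted p = 0.9997) and passed without ARM replicate 1, the one ARM library with counts (adjusted p = 0.00383). A row named after Btg3, an antiproliferative gene, lay 931 kb away and was the nearest such row.

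Higher in ARM cord, the row with the smallest p was MSTRG.21280.23 on chromosome 7 (33004033 to 33011348), with 288, 1011 and 879 counts in the normal and 3012, 1790 and 2961 in the ARM libraries. The groups did not overlap, and the level was 173 ± 67.8 against 739 ± 231 CPM. It did not pass in edgeR (log2 fold change 2.09 ± 0.37, adjusted p = 0.952) and passed in DESeq2 (adjusted p = 5.82e-09). The longer MSTRG.21280.21, which covers the same region, had 5469, 3332 and 2931 counts in the normal and 2341, 2236 and 2729 in the ARM libraries, and its groups overlapped, at 1846.7, 750.3 and 648.3 CPM in the normal and 627.9, 602.2 and 855.2 CPM in the ARM libraries. Summed with MSTRG.21280.22, the locus was at 1330.4 ± 530 CPM in normal and 1590.2 ± 387 CPM in ARM cord, and the groups overlapped.

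MSTRG.24792.1 on chromosome 9 (113521263 to 113524918) followed, with 83, 199 and 100 counts in the normal and 398, 253 and 295 in the ARM libraries (log2 fold change 1.49 ± 0.30, edgeR adjusted p = 0.9997 and DESeq2 adjusted p = 2.74e-04). Its locus as a whole, at 192 ± 20.1 against 166 ± 111 CPM, went the other way (log2 fold change -0.21 ± 0.43, edgeR adjusted p = 0.9999). MSTRG.16740.1 on chromosome 4 (39045281 to 39057460) had 81, 204 and 172 counts in the normal and 568, 229 and 1901 in the ARM libraries, and its partner MSTRG.16740.2 had 1115, 1730 and 1370 against 563, 1052 and 29.

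Among the 8 smallest p-values of either direction, the remaining rows did not pass (edgeR adjusted p = 0.9997 for each). Higher in ARM cord were MSTRG.17566.11 (log2 fold change 0.99 ± 0.27), MSTRG.1451.2 (0.95 ± 0.33), MSTRG.23848.1 (0.88 ± 0.32) and MSTRG.16129.2 (0.70 ± 0.25). Lower in ARM cord were MSTRG.5782.1 (-1.12 ± 0.40), MSTRG.18339.1 (-0.87 ± 0.25), MSTRG.5782.4 (-0.67 ± 0.14), MSTRG.9879.5 (-0.56 ± 0.15), MSTRG.1446.4 (-0.38 ± 0.11) and MSTRG.3606.1 (-0.32 ± 0.13). Groups did not overlap for MSTRG.17566.11 and for all of the lower ones except MSTRG.5782.1. MSTRG.3606.1 (chromosome 10, 38726880 to 38729917) was the sole one of these alone at its locus in the table. It lay between rows named after Aff4, 1812 bases from the one and 16698 bases from the other, and was at 83.6 ± 9.52 against 66.8 ± 3.61 CPM. Aff4 encodes a scaffold of the super elongation complex. MSTRG.18339.1 overlapped a row named after Fbxo10, and MSTRG.23848.1 one named after Tbc1d5. With all rows summed, the groups overlapped at the loci MSTRG.18339, MSTRG.16129 and MSTRG.5782. MSTRG.18339 was at 55.38, 57.65 and 54.19 CPM in the normal and 47.2, 43.63 and 56.72 CPM in the ARM libraries. MSTRG.16129 was at 37.48, 37.83 and 39.59 against 37.82, 46.32 and 50.14 CPM. MSTRG.5782 was at 445, 263.7 and 245.8 against 192.8, 146 and 267.6 CPM.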

How the data were processed

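The 6 lncRNA libraries of embryonic day 17 lumbosacral cord were used, grouped by the sample titles. The authors deposited whole-number counts, FPKM values, a length and a position per transcript. Per the submitters' processing notes, the tools included Cufflinks 2.1.1, Cuffdiff, TopHat2 2.0.9 and CASAVA 1.8, and the build named there is mm10, of the mouse. The lncRNA table has a chromosome 20, which the mouse lacks, so its coordinates are not mm10. Cufflinks is a transcript assembler, but the MSTRG prefix is the default of another, StringTie, so which one made these rows is unknown. The sources used here do not give the counting tool, strand setting or build of the table, and no genome sequence was used. edgeR 4.0.16 (R 4.3.3) was run on the counts of the whole table (TMM, filterByExpr, glmQLFit, glmQLFTest, no covariate), with Benjamini-Hochberg adjustment and a threshold of 0.05. Standard errors come from the F statistic. Shares within a locus were tested with diffSpliceDGE, and DESeq2 1.42.0 was an alternative. Deviations use log2(CPM + 0.5), and the check of pairing log2(CPM + 1). The code was tested on simulated data.

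Chi-square per degree of freedom between any 2 libraries was at least 14.4, so none was counted as a repeat of another. Gene symbols came from names in the table, kept for 8269 rows whose GRCr8 RefSeq gene lies on the same chromosome. Reads carry no stated molecular identifiers. The rule for named rows took called rows, the 8 smallest p per direction, the 8 highest CPM, the 5 highest FPKM, the 3 longest, the 3 largest spans and the 4 loci with the most rows. Members, lists and tests were chosen with earlier results of these data known, and rows named outside the rule after their values were seen.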

Additional observations from a re-analysis of the deposited data

How the results depend on the processing

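The count of assembled transcripts called between ARM and normal cord was 1 with RLE size factors, without a filter on low counts and with a 2-fold threshold. It was 3 with DESeq2 and 0 with the replicate number as a block, and it ran from 0 to 8 when any 1 library was dropped: 8 without normal replicate 1, 1 without normal replicate 2, 3 without normal replicate 3, 2 without ARM replicate 1 or ARM replicate 2 and 0 without ARM replicate 3. Over all rows these fits called 18, 11, 10, 15, 17 and 18, in the order normal replicates 1 to 3 and ARM replicates 1 to 3, against 7 with all libraries and 2 with the block. Of the 8, only MSTRG.9781.2 was called in the fit of all libraries. The labels do not say that the replicate numbers pair libraries, and same-numbered libraries deviated from their group means with correlations of 0.00193, 0.0266 and -0.062. Under the block MSTRG.9781.2 had an edgeR adjusted p of 0.153, and its share of the locus passed at 0.0101. Summed loci gave 1 call with DESeq2 and 0 to 1 with 1 library left out, MSTRG.11275 without normal replicate 2 and MSTRG.5060 without ARM replicate 3. Rows with a changed share numbered 1 to 8 with 1 library left out. The difference in the share of counts, -0.79 percentage points, ran from -2.43 without ARM replicate 3 to 0.21 without ARM replicate 2, where its sign reversed. The log2 ratio of median FPKM was 0.28 among rows past the filter, 1.65 summed by locus or name, and 1.61 to 1.70 with 1 library left out, where the exact p of 0.0625 is the smallest that 5 libraries allow. Of 188 other values, for named rows and loci, none reversed, 5 newly passed and 2 no longer passed. The causes were not tested.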
